A study of Mus musculus with 26 samples.

Results

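Foxd3, Otx2, Fgf5, Pou3f1, Lef1 and Zic2 are 6 genes of formative and primed pluripotency, taken by symbol from the 55291 genes of a bulk RNA-seq count table of mouse R1 embryonic stem cells (ESCs). The list was drawn up with the measured values in view, above all the lower Foxd3 of Dux-overexpressing cells, so that difference is described here and not tested. The study asked whether the transcription factor DUX, its condensates and a super-enhancer at the Tdpoz locus are needed when ESCs are driven towards a totipotent-like state. Poly(A) RNA was sequenced in 26 libraries, 2 for each of 13 groups.

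All groups were R1 cells grown with leukemia inhibitory factor (LIF) on gelatin, without feeder cells named in the labels. The controls were untreated ESC and DMSO-treated ESC (DMSO). Induction was with 0.53 µM retinoic acid for 48 h (RA), with 4 nM pladienolide B, a splicing inhibitor, for 4 days (PlaB), or with 4 µg/mL doxycycline for 24 h. Doxycycline was used to overexpress Dux (Dux OE), Zscan4 (Zscan4 OE) or Dux R70A, a mutant described as deficient in phase separation (Dux R70A OE). Dux knockdown cells (Dux KD) were given RA or PlaB or carried the Zscan4 OE label, and cells that lack the Tdpoz super-enhancer (SE KO) were given RA, PlaB or Dux OE. DMSO was the control of RA and PlaB, and ESC that of the doxycycline groups. The labels name neither the shRNA, nor the number of SE KO clones, nor an uninduced transgenic line. SE KO RA replicate 1 has the genotype label WT and was grouped by its title. Both Dux KD Zscan4 OE libraries have the treatment label "no", with no doxycycline and no time.

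ESCs in LIF are held near the naive state of the early epiblast. When that state is left, cells pass through a formative phase, in which they become able to respond to lineage signals, and then reach the primed state of the post-implantation epiblast. Foxd3, a forkhead factor, and Otx2, an orthodenticle homeobox factor, act early in this transition and open enhancers, and Otx2 works there together with Pou3f1 (Oct6), a POU-domain factor. Fgf5 encodes a secreted ligand of the FGF family and is the classic marker of the post-implantation epiblast. Lef1 is a DNA-binding partner of beta-catenin in WNT signalling. Zic2 is a zinc finger factor that occupies enhancers in ESCs and later acts in the neural plate. Several of these genes are also used outside the epiblast, Foxd3 in the neural crest and Otx2 in the anterior neural plate.

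The genes lie at chr4:99656299-99658622 (Foxd3, plus strand, 1 exon), chr14:48657677-48673819 (Otx2, minus strand), chr5:98254184-98277030 (Fgf5, plus strand), chr4:124656807-124660655 (Pou3f1, plus strand, 1 exon), chr3:131110471-131224356 (Lef1, plus strand) and chr14:122475435-122479852 (Zic2, plus strand), in mm10 coordinates as the table gives them. Zic2 and Zic5, which encodes another zinc finger factor of the family, stand on opposite strands 9.76 kb apart. Otx2, Pou3f1 and Lef1 each overlap an annotated gene on the other strand (Otx2os1, Gm2164 and Lef1os1), and since the sources used here give no strand setting for the counting, reads of such a pair cannot be told apart. Foxd3 overlaps a small annotated gene on its own strand, Gm23366.

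RefSeq start sites on GRCm38.p6 were found for Foxd3, Otx2, Fgf5 and Lef1, that is for 4 of the 6 genes. The 250 bases before the start are shown for Foxd3 and for one of the 4 starts of Otx2, because these genes had the widest ranges of level and went opposite ways under PlaB. Letters in capitals mark an OTX motif.
Foxd3 chr4:99656049-99656298, plus strand: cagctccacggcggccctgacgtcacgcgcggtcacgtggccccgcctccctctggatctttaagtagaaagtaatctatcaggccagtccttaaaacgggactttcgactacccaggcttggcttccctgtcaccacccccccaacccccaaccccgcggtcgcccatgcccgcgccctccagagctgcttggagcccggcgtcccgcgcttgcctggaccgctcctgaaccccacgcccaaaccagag
Otx2 (start 3) chr14:48665110-48665359, minus strand: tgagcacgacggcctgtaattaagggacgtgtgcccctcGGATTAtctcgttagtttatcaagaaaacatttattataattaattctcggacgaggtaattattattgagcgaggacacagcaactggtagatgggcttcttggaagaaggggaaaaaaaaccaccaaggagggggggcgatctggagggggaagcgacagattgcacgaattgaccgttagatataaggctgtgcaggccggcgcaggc
The Foxd3 window was rich in GC (65.6%) and held 21 CpG, against a median of 52.4% GC and 6 CpG over 32851 windows of this kind. The Otx2 window had 48.4% GC and 14 CpG. It held GGATTA, the reverse complement of the OTX motif TAATCC, which 6.25% of all windows hold on either strand. Starts 1, 2 and 4 of Otx2 did not hold this motif. Both strands were searched for 5 further motifs in the 10 windows of the 4 genes. These were GATTNAATC, taken as a DUX core, found in 0.247% of all windows, the POU octamer ATGCAAAT (1.6%), the TCF/LEF motif CTTTGAT (3.21%), the nuclear receptor motif AGGTCA (14%) and the TATA box TATAAA (12.4%). Of these only the letters TATAAA were found. They stood 192 bases before the first Otx2 start and, on the opposite strand, 231 bases before the fourth Lef1 start. Whether either match acts as a TATA box was not tested. The Foxd3 and Fgf5 windows held none of the letters searched.

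Libraries held between 14401452 and 39402840 counted reads (median 18276934). Levels are given as CPM, read counts per 1000000 reads scaled by the TMM method of edgeR, and 3 reads corresponded to between 0.0796 and 0.226 CPM. The 5 ESC markers Pou5f1, Sox2, Nanog, Zfp42 and Esrrb were above that floor in every library, with summed levels between 1260 and 5120 CPM, the lowest in SE KO RA. Duxf3, the annotated Dux gene, was at 9.25 and 8.21 CPM in PlaB and at 0.059 and 0 CPM in Dux KD PlaB. In RA it was at 2.16 and 2.75 CPM and in Dux KD RA at 0.919 and 0.354 CPM. It was at 4.01 and 3.24 CPM in Dux OE and at 0 in both libraries labelled Dux R70A OE. Zscan4c, a gene activated by DUX, was at 811 and 810 CPM in Dux OE, at 0.107 and 0.0628 CPM in the libraries labelled Dux R70A OE and at 5.73 and 6.13 CPM in ESC, so no value here shows that the mutant was expressed, and that group is known by its label alone. Zscan4c was at 100 and 103 CPM in Zscan4 OE and at 0.779 and 1.13 CPM in the libraries labelled Dux KD Zscan4 OE. Nothing in the labels says that the 2 libraries of a group came from separate cultures, so every p-value measures only the spread between these libraries, which may be technical. In bulk RNA, fewer cells that express a gene and less RNA per cell cannot be told apart.

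In untreated ESC the level per length was highest for Foxd3, at 11.2 ± 0.661 CPM per kb of exon (SD, n = 2), followed by Otx2 at 6.7 ± 0.127, Zic2 at 4.1 ± 0.468, Pou3f1 at 2.14 ± 0.43, Lef1 at 0.501 ± 0.0226 and Fgf5 at 0.0258 ± 0.00123 CPM per kb. Fgf5, the primed marker, was thus close to the floor where the other 5 were expressed. Across the 13 groups the 6 genes had no common order. The highest group mean was that of Dux KD Zscan4 OE for Foxd3, of Dux KD PlaB for Otx2 and Lef1, of DMSO for Pou3f1 and Zic2, and of SE KO PlaB for Fgf5. Over the group means of log2 CPM, Pearson's r between members ranged from -0.46 (Otx2 with Zic2) to 0.58 (Foxd3 with Otx2). These are descriptions over 13 points that share controls and normalization.

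**Figure D1:**
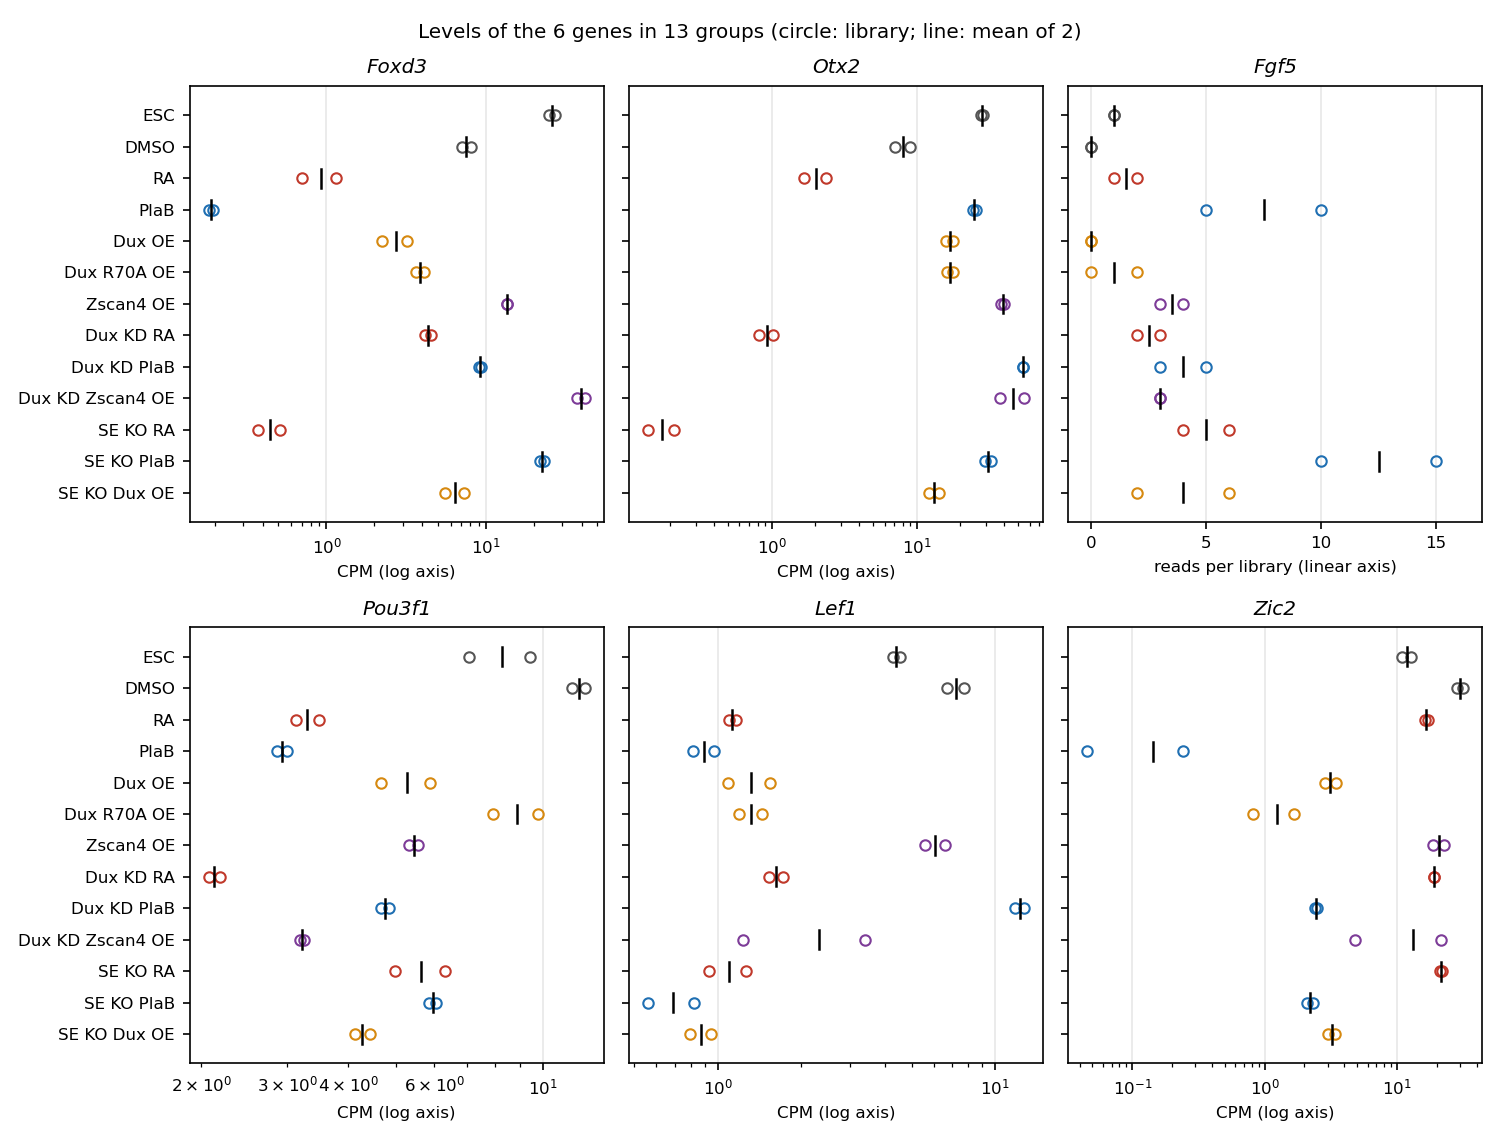
Level of each gene in every library, with groups as rows and CPM on a log axis (Fgf5 in reads on a linear axis). Circles are libraries and vertical lines the mean of 2. Foxd3 and Zic2 lie lowest in PlaB, at means of 0.188 and 0.144 CPM, whereas Otx2 lies lowest in SE KO RA, at 0.176 CPM.

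Foxd3 covered a 211-fold range of group means. It was highest in Dux KD Zscan4 OE (39.6 ± 3.06 CPM, SD, n = 2), followed by ESC (25.9 ± 1.54), SE KO PlaB (22.4 ± 0.867), Zscan4 OE (13.5 ± 0.000893), Dux KD PlaB (9.21 ± 0.176) and DMSO (7.55 ± 0.647). Below these came SE KO Dux OE (6.38 ± 1.25), Dux KD RA (4.34 ± 0.284), Dux R70A OE (3.86 ± 0.312), Dux OE (2.72 ± 0.691), RA (0.922 ± 0.316), SE KO RA (0.44 ± 0.0959) and PlaB (0.188 ± 0.00865). Of the 12 pairs of neighbours in this order, DMSO and SE KO Dux OE alone had overlapping libraries.

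Otx2 ranged 307-fold, from 54 ± 0.33 CPM in Dux KD PlaB to 0.176 ± 0.0509 CPM in SE KO RA. Its next levels were 46.3 ± 12.1 in Dux KD Zscan4 OE, 39.2 ± 1.05 in Zscan4 OE, 31.1 ± 1.95 in SE KO PlaB, 28.3 ± 0.535 in ESC and 25 ± 1 in PlaB. Dux R70A OE (17 ± 1.07) and Dux OE (16.9 ± 1.28) overlapped, as did Dux KD Zscan4 OE with the group on either side of it. The lower end was formed by SE KO Dux OE (13.2 ± 1.55), DMSO (8.04 ± 1.34), RA (2.02 ± 0.496) and Dux KD RA (0.929 ± 0.148). All 3 RA groups therefore held less Otx2 than all other groups, and all 3 PlaB groups more than DMSO.

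Pou3f1 varied least, 5.58-fold between 11.8 ± 0.543 CPM in DMSO and 2.12 ± 0.0793 CPM in Dux KD RA, and 6 of its 12 neighbouring pairs overlapped. Its level was 8.84 ± 1.32 CPM in Dux R70A OE and 8.24 ± 1.65 in ESC, and between 4.28 and 5.96 CPM in SE KO PlaB, SE KO RA, Zscan4 OE, Dux OE, Dux KD PlaB and SE KO Dux OE. RA (3.3 ± 0.254), Dux KD Zscan4 OE (3.21 ± 0.0395) and PlaB (2.93 ± 0.097) were lower.

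Lef1 was at 12.2 ± 0.633 CPM in Dux KD PlaB, 7.21 ± 0.734 in DMSO, 6.07 ± 0.712 in Zscan4 OE and 4.41 ± 0.199 in ESC, 4 groups without overlap. In the other 9 groups its mean was between 0.692 CPM (SE KO PlaB) and 2.31 CPM (Dux KD Zscan4 OE), and 7 of the 12 neighbouring pairs overlapped, all of them among these 9 groups. The range of Lef1 was 17.7-fold.

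Zic2 ranged 209-fold. It was at 30 ± 2.35 CPM in DMSO and between 11.8 and 21.4 CPM in SE KO RA, Zscan4 OE, Dux KD RA, RA, Dux KD Zscan4 OE and ESC. All groups with PlaB or with a Dux transgene lay lower, at 3.23 ± 0.27 CPM in SE KO Dux OE, 3.15 ± 0.427 in Dux OE, 2.46 ± 0.0667 in Dux KD PlaB, 2.22 ± 0.172 in SE KO PlaB, 1.24 ± 0.6 in Dux R70A OE and 0.144 ± 0.139 in PlaB. The replicates of Dux KD Zscan4 OE disagreed, at 4.8 and 21.6 CPM.

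Fgf5 had at most 15 reads in a library and did not pass the low-count filter, so it entered no fit. It was counted 0 and 0 times in DMSO and in Dux OE, 1 and 1 times in ESC, 10 and 5 times in PlaB, 5 and 3 times in Dux KD PlaB and 15 and 10 times in SE KO PlaB. In RA it had 2 and 1 reads, in Dux KD RA 3 and 2, and in SE KO RA 6 and 4. Dux R70A OE had 0 and 2 reads, Zscan4 OE 3 and 4, Dux KD Zscan4 OE 3 and 3, and SE KO Dux OE 2 and 6. With 3 reads over the group put in place of the 0 of DMSO, Fgf5 was 4.2-fold higher in PlaB than in DMSO. This ratio leaves out the counting error of the PlaB reads and is no lower limit. SE KO PlaB against PlaB gave a ratio of 1.6 (exact 95% interval 0.81 to 3.26, counting error only), and Dux KD PlaB against PlaB 0.676 (0.248 to 1.7), both undetectable at this depth.

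Most of the tested genes were lower in both RA and PlaB than in DMSO. Otx2 parted the drugs, being lower in RA and higher in PlaB than in DMSO. In ESC, however, Otx2 was at 27.9 and 28.7 CPM, above both PlaB libraries (24.3 and 25.7 CPM). Its direction in PlaB therefore depended on the control. Differences were tested for 5 of the 6 genes with edgeR's quasi-likelihood test over all 20953 genes that passed the filter, and called at a Benjamini-Hochberg adjusted p under 0.05 with a log2 fold change of 1 or more in either direction. In RA against DMSO, 4 of 5 were called, all lower, where 31.0% of all tested genes were called and 10.4% were called lower. Foxd3 was at 7.09 and 8.01 CPM in DMSO and at 1.15 and 0.699 CPM in RA. It fell by 3.02 on the log2 scale (SE 0.22, adjusted p = 5.3e-12). Lef1 stood at 6.69 and 7.73 CPM in DMSO and 1.1 and 1.16 CPM in RA, a log2 fold change of -2.67 (SE 0.29, adjusted p = 1.1e-08). Otx2 was at 7.09 and 8.99 against 1.67 and 2.38 CPM, -1.99 on the log2 scale (SE 0.21, adjusted p = 3.7e-09). The libraries of the 2 groups did not overlap for any of these genes. For Pou3f1 the levels were 11.5 and 12.2 in DMSO and 3.48 and 3.12 CPM in RA, a log2 fold change of -1.84 (SE 0.18, adjusted p = 1.5e-09). Zic2 was 28.4 and 31.7 CPM in DMSO and 17.2 and 16.2 CPM in RA, and its log2 fold change of -0.85 (SE 0.29, adjusted p = 0.0138) was short of the fold threshold. Both RA libraries lay above ESC, where Zic2 was at 12.8 and 10.9 CPM, so its direction in RA depended on the control.

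In PlaB against DMSO all 5 tested genes were called, 1 higher and 4 lower, where 58.9% of all tested genes were called and 26.6% were called lower. Zic2 had 0.242 and 0.0454 CPM in PlaB, that is 5 reads and 1 read, against 28.4 and 31.7 CPM in DMSO. Its fitted log2 fold change was -7.67 (SE 0.56, adjusted p = 1.1e-12), and the ratio of the counts gave 214-fold less (95% counting interval 97.9 to 584). Without either PlaB replicate or either DMSO replicate the log2 fold change stayed between -9.27 and -6.93. Foxd3 had 4 reads in each PlaB library (0.194 and 0.182 CPM) against 7.09 and 8.01 CPM in DMSO, which is 40.3-fold less by counts (20.2 to 94.3) and -5.28 on the log2 scale (SE 0.30, adjusted p = 4.9e-15). These 2 genes came down to near the floor of detection. Lef1 was at 0.969 and 0.817 CPM in PlaB, a log2 fold change of -3.01 (SE 0.30, adjusted p = 9.8e-10), and Pou3f1 at 2.86 and 3 CPM, a log2 fold change of -2.01 (SE 0.18, adjusted p = 1.2e-10). Otx2 rose from 7.09 and 8.99 to 24.3 and 25.7 CPM, a log2 fold change of 1.63 (SE 0.16, adjusted p = 3.3e-10). The median log2 fold change of all tested genes was 0.22 here, and 0.38 with RLE or 0.48 with library size scaling, and none of the 5 calls changed.

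**Figure D2:**
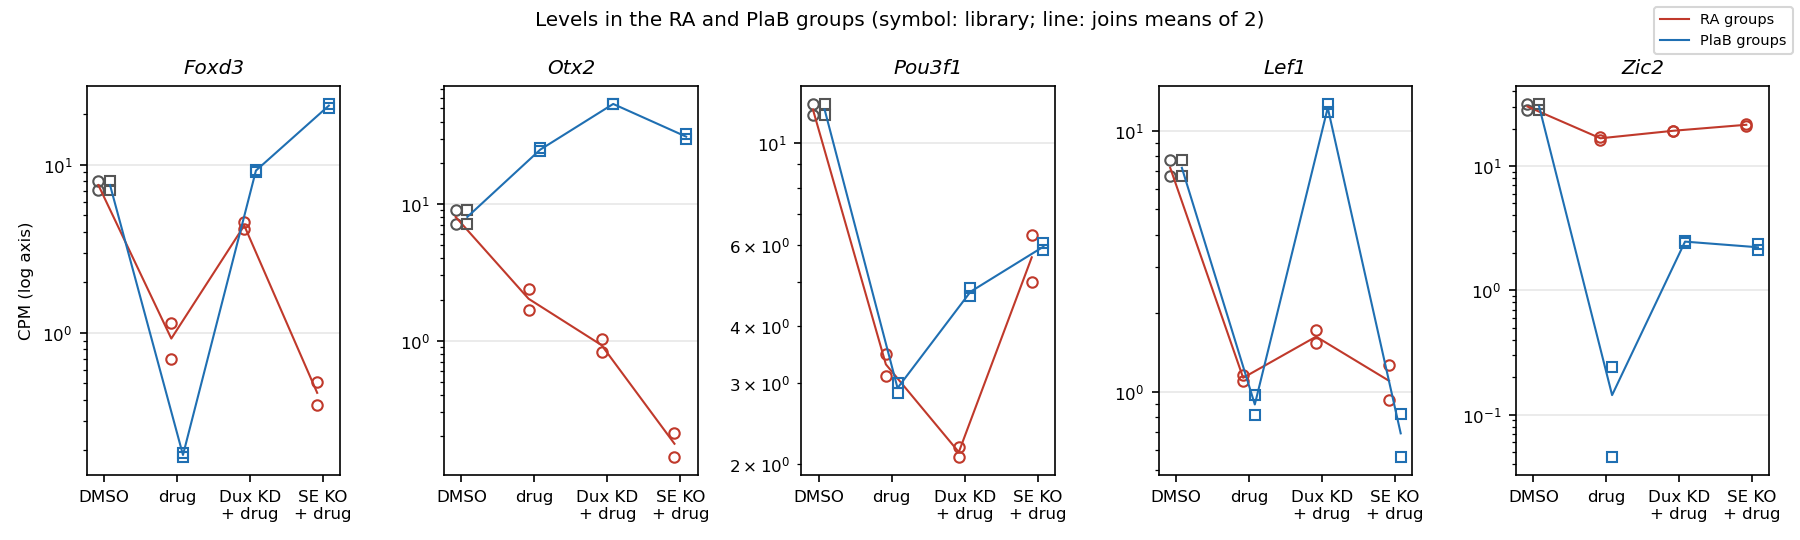
CPM on a log axis in DMSO, under the drug alone, and under the drug in Dux KD and SE KO cells, with RA groups as circles and PlaB groups as squares (each symbol a library, lines joining means of 2). Foxd3 is low under either drug alone, at 0.922 CPM in RA and 0.188 CPM in PlaB, and is at 9.21 and 22.4 CPM in the Dux KD and SE KO cells given PlaB.

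Dux knockdown cells were compared with cells given the same induction without the knockdown. No Dux KD or SE KO cells without an induction in their title were sequenced. A difference of the modified line itself therefore cannot be told apart from a changed response to the induction. Under PlaB, 4 of 5 genes were higher in Dux KD cells and none lower, where 54.9% of all tested genes were called and 26.1% were called higher. Foxd3 was at 9.08 and 9.33 CPM in Dux KD PlaB against 0.194 and 0.182 CPM in PlaB, 49.1-fold more by counts (24.6 to 115) and 5.57 on the log2 scale (SE 0.29, adjusted p = 1.1e-15). Lef1 reached 12.7 and 11.8 CPM against 0.969 and 0.817 CPM (log2 fold change 3.77, SE 0.30, adjusted p = 7.0e-12). Zic2 had 2.42 and 2.51 CPM against 0.242 and 0.0454 CPM, 17.5-fold more by counts (7.72 to 49.1, counting error only) and 4.07 on the log2 scale (adjusted p = 6.6e-05). This size rested on the few PlaB reads, as it was 5.66 without PlaB replicate 1 and 3.32 without PlaB replicate 2. Each of these genes was thus apart from PlaB in both libraries. Foxd3 and Lef1 stood above both DMSO libraries, whereas Zic2, at 2.46 CPM, stood below its 30 CPM in DMSO. Otx2 was at 53.7 and 54.2 CPM against 24.3 and 25.7 CPM, a log2 fold change of 1.11 (SE 0.14, adjusted p = 4.9e-08) that lost its call at 0.95 with RLE and DESeq2 and at 0.91 with library size scaling. Pou3f1 was 4.66 and 4.84 against 2.86 and 3 CPM, with a log2 fold change of 0.70 (SE 0.20, adjusted p = 0.00273). Over all genes, 11.7% were called between Dux KD PlaB and DMSO, against the 58.9% between PlaB and DMSO. Zscan4c, at 2670 and 2520 CPM in PlaB, was at 1.53 and 1.38 CPM in Dux KD PlaB. Whether the Dux KD cells were exposed to PlaB to the same degree was not tested.

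Under RA, 2 of 5 genes were called in Dux KD cells, where 10.9% of all tested genes were called. Foxd3 was at 4.14 and 4.54 CPM in Dux KD RA against 1.15 and 0.699 CPM in RA, a log2 fold change of 2.22 (SE 0.24, adjusted p = 5.3e-08). Otx2 went the other way, from 1.67 and 2.38 CPM in RA to 1.03 and 0.825 CPM, a log2 fold change of -1.11 (SE 0.31, adjusted p = 0.00544). This call rested on the replicates, as the log2 fold change was -0.84 without RA replicate 2 and -0.96 without Dux KD RA replicate 2. For Pou3f1 it was -0.64 (adjusted p = 0.0231), for Lef1 0.52 (adjusted p = 0.251) and for Zic2 0.20 (adjusted p = 0.629), none of them past the threshold. The difference between the knockdown effects in PlaB and in RA was tested as an interaction and was called for all 5 genes, where 52.2% of all tested genes were called. It was 3.35 on the log2 scale for Foxd3 (SE 0.46, adjusted p = 3.6e-07), 3.25 for Lef1 (SE 0.47, adjusted p = 8.1e-07), 3.87 for Zic2 (SE 0.89, adjusted p = 4.5e-04), 2.22 for Otx2 (SE 0.33, adjusted p = 1.5e-06) and 1.33 for Pou3f1 (SE 0.30, adjusted p = 2.9e-04), each more positive in PlaB. The value of Zic2 was 5.47 without PlaB replicate 1 and 3.12 without PlaB replicate 2. Zscan4c was at 131 and 114 CPM in RA and at 94.1 and 88.7 CPM in Dux KD RA, a far smaller difference than under PlaB. The part of a different extent of knockdown in these interactions was not tested.

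In the libraries labelled Dux KD Zscan4 OE, 2 of 5 genes were called against Zscan4 OE, where 11.1% of all tested genes were called. Foxd3 was at 41.7 and 37.4 CPM against 13.5 and 13.5 CPM, a log2 fold change of 1.55 (SE 0.15, adjusted p = 6.1e-09) that stayed between 1.44 and 1.62 without any one library. Lef1 was at 1.23 and 3.39 CPM against 5.57 and 6.57 CPM (log2 fold change -1.42, SE 0.29, adjusted p = 3.4e-04), and was -2.30 without Dux KD Zscan4 OE replicate 2 and no longer called, at -0.87, without replicate 1. Replicates of the knockdown group differed for other genes too. Zic2, at 4.8 and 21.6 CPM against 18.9 and 22.7 CPM, had a log2 fold change of -0.68 (adjusted p = 0.0957), which was -2.12 and called without replicate 2 and 0.03 without replicate 1. Otx2, at 54.9 and 37.7 against 38.4 and 39.9 CPM, had 0.24 (adjusted p = 0.184), and -0.08 without replicate 1. Pou3f1 had -0.76 (SE 0.20, adjusted p = 0.00523). As noted for the labels, these libraries may differ from Zscan4 OE in induction as well as in Dux, and the 2 cannot be told apart. The knockdown effect here and in RA differed for 2 of 5 genes, where 12.3% of all tested genes were called: by 1.35 for Otx2 (SE 0.34, adjusted p = 0.00308) and by -1.95 for Lef1 (SE 0.45, adjusted p = 0.00168). The value of Lef1 was -2.82 without Dux KD Zscan4 OE replicate 2 and -1.38 without replicate 1. For Foxd3 the difference was -0.67 (SE 0.29, adjusted p = 0.0821), which passed the threshold at -1.08 without RA replicate 1, and for Zic2 -0.88, which passed it at -2.32 without Dux KD Zscan4 OE replicate 2. The number of genes called was therefore between 2 and 3.

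The super-enhancer knockout was compared in the same way. In SE KO PlaB against PlaB, 3 of 5 genes were called, all higher, where 52.0% of all tested genes were called. Foxd3 was at 21.8 and 23 CPM against 0.194 and 0.182 CPM, 120-fold more by counts (60.4 to 278) and 6.85 on the log2 scale (SE 0.26, adjusted p = 1.3e-18). Zic2 had 2.34 and 2.1 CPM against 0.242 and 0.0454 CPM, 15.8-fold more by counts (7.02 to 44.2, counting error only) and 3.92 on the log2 scale (adjusted p = 9.3e-05), which was 5.49 without PlaB replicate 1 and 3.17 without PlaB replicate 2. Foxd3 here stood between DMSO (7.55 CPM) and ESC (25.9 CPM), and Zic2 below both. Pou3f1 was at 5.85 and 6.06 against 2.86 and 3 CPM (log2 fold change 1.02, SE 0.19, adjusted p = 2.7e-05), a call lost at 0.90 with RLE, library size scaling or DESeq2. Lef1, high in Dux KD PlaB, had 0.824 and 0.56 CPM in SE KO PlaB, and its log2 fold change against PlaB was -0.35 (SE 0.40, adjusted p = 0.436). Otx2 had 0.31 (SE 0.14, adjusted p = 0.0438). Of all genes, 28.1% were called between SE KO PlaB and DMSO.

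In SE KO RA against RA, 2 of 5 genes were called, both lower, where 17.6% of all tested genes were called. Otx2 had 3 and 5 reads, 0.14 and 0.212 CPM, against 1.67 and 2.38 CPM in RA, which is 11.4-fold less by counts (5.52 to 27.1) and -3.46 on the log2 scale (SE 0.41, adjusted p = 1.1e-07). Without SE KO RA replicate 1, whose genotype label conflicts with its title, or without any other library, it stayed between -3.79 and -3.19. Foxd3 was at 0.372 and 0.508 against 1.15 and 0.699 CPM (log2 fold change -1.05, SE 0.35, adjusted p = 0.0158). That call was lost without SE KO RA replicate 1 (-0.86), without RA replicate 1 (-0.65) and in a fit of these 2 groups alone. Pou3f1 was at 4.98 and 6.31 against 3.48 and 3.12 CPM (log2 fold change 0.77, SE 0.19, adjusted p = 0.00123). Lef1 had -0.03 (adjusted p = 0.961) and Zic2 0.36 (adjusted p = 0.325).

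The knockout effects in PlaB and in RA differed for 3 of 5 genes, where 49.0% of all tested genes were called. The difference was 7.91 for Foxd3 (SE 0.49, adjusted p = 6.6e-14), 3.78 for Otx2 (SE 0.43, adjusted p = 1.7e-08) and 3.56 for Zic2 (SE 0.89, adjusted p = 0.00104), the last being 5.08 without PlaB replicate 1 and 2.81 without PlaB replicate 2. Foxd3 was thus higher in SE KO cells under PlaB and not higher under RA. For Pou3f1 the difference was 0.25 (SE 0.27, adjusted p = 0.433) and for Lef1 -0.32 (SE 0.53, adjusted p = 0.626).

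SE KO Dux OE against Dux OE gave 0 of 4 tested genes called by edgeR, where 6.30% of all tested genes were called, with 1 of 4 at an unadjusted p under 0.05 and 0 called by DESeq2. Otx2 was at 12.1 and 14.3 against 16 and 17.8 CPM (log2 fold change -0.36, adjusted p = 0.078), Zic2 at 3.42 and 3.04 against 2.84 and 3.45 CPM (0.04, adjusted p = 0.965). Foxd3, at 5.5 and 7.26 against 3.21 and 2.23 CPM, is described by its log2 difference of 1.23. The knockout effects in Dux OE and in RA differed for 2 of 4 genes, where 20.8% of all tested genes were called: by 3.10 for Otx2 (SE 0.45, adjusted p = 3.9e-06) and by -1.08 for Pou3f1 (SE 0.26, adjusted p = 0.00164). The second was lost, at -0.92, -0.90 and -0.99, without Dux OE replicate 2, without SE KO RA replicate 2 and with library size scaling.

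Foxd3, which drew attention to the list, was at 27 and 24.9 CPM in ESC and at 3.21 and 2.23 CPM in Dux OE, a log2 difference of -3.26 or 9.57-fold. Zic2 (12.8 and 10.9 against 2.84 and 3.45 CPM, -1.91 on the log2 scale) and Lef1 (4.55 and 4.27 against 1.09 and 1.55 CPM, -1.72) were lower as well. Otx2 (-0.74) and Pou3f1 (-0.64) differed less. All 5 were lower in both Dux OE libraries than in both ESC libraries, and 9.51% of all tested genes were called in this comparison. The fall of Foxd3 in it was the measured value in the choice of the list, so nothing is read from it. Foxd3 is not tested in other comparisons that share the ESC or Dux OE libraries, and the tests of the other genes there are not independent of this comparison.

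The size of these differences depended on the control, since the 2 controls differed in the same genes. DMSO against ESC gave 2 of 4 tested genes called, where 16.2% of all tested genes were called. Otx2 was lower (7.09 and 8.99 against 27.9 and 28.7 CPM, log2 fold change -1.81, SE 0.16, adjusted p = 6.2e-10) and Zic2 higher (28.4 and 31.7 against 12.8 and 10.9 CPM, log2 fold change 1.34, SE 0.31, adjusted p = 7.1e-04). Foxd3 was at 7.55 CPM in DMSO and 25.9 CPM in ESC, a difference of -1.78. Against DMSO, Dux OE had -1.48 for Foxd3, 1.07 for Otx2, -1.16 for Pou3f1, -2.43 for Lef1 and -3.25 for Zic2, so that Otx2 changed sign with the control while Foxd3, Lef1, Zic2 and Pou3f1 were lower against either. The same Dux OE libraries enter with either control, so these values are a description and add no independent support. What separated the controls besides the solvent, such as passage or day, is not given in the labels.

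Zic2 and Lef1 were lower in the libraries labelled Dux R70A OE too. In Dux R70A OE against ESC they were the 2 of 4 genes past the threshold, where 16.9% of all tested genes were called. Zic2 was at 1.67 and 0.816 against 12.8 and 10.9 CPM (-3.22 on the log2 scale) and Lef1 at 1.45 and 1.19 against 4.55 and 4.27 CPM (-1.73). Both were already lower in Dux OE against these same ESC libraries, so they are given here as a description and add no independent support. Otx2 had -0.73 (SE 0.15, adjusted p = 1.8e-04), short of the fold threshold, and Pou3f1 0.10 (SE 0.17, adjusted p = 0.669). Foxd3 was at 4.08 and 3.64 CPM, a log2 difference of -2.74 that is not tested, as it shares the ESC libraries. The DMSO libraries are not part of the comparison that held the fall of Foxd3. Against them, 3 of 5 were called, where 9.05% of all tested genes were called: Zic2 at -4.56 (SE 0.41, adjusted p = 3.7e-09), Lef1 at -2.44 (SE 0.30, adjusted p = 4.2e-07) and Otx2 at 1.08 (SE 0.16, adjusted p = 8.1e-06). Zic2 was at -5.19 without Dux R70A OE replicate 1 and -4.17 without replicate 2. Otx2 lost that call at 0.91 without DMSO replicate 1. Foxd3 had -0.96 (SE 0.18, adjusted p = 1.7e-04), and passed the fold threshold, at -1.06 and -1.05, without DMSO replicate 1 and without Dux R70A OE replicate 1.

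Directly compared, Dux R70A OE and Dux OE gave 0 of 4 tested genes called by edgeR, where 13.6% of all tested genes were called, with 2 of 4 at an unadjusted p under 0.05 and 1 (Zic2) called by DESeq2. Zic2 was at 1.67 and 0.816 against 2.84 and 3.45 CPM (log2 fold change -1.31, SE 0.53, adjusted p = 0.0537). It was called at -1.23 without the low-count filter, at -1.30 in a fit of these 2 groups, at -1.34 with DESeq2 and at -1.94 without Dux R70A OE replicate 1. Pou3f1 was 9.78 and 7.91 against 4.67 and 5.88 CPM (0.75, SE 0.18, adjusted p = 0.00182), short of the fold threshold. Otx2 (0.01, SE 0.15) and Lef1 (0.00, SE 0.38) had overlapping libraries. Foxd3 was 0.52 higher on the log2 scale in the libraries labelled Dux R70A OE.

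Zscan4 OE against ESC gave 0 of 4 tested genes called by edgeR, where 11.6% of all tested genes were called, with 3 of 4 at an unadjusted p under 0.05 and 0 called by DESeq2. Log2 fold changes were 0.82 for Zic2 (SE 0.31, adjusted p = 0.0386), 0.47 for Otx2 (SE 0.14, adjusted p = 0.00856), 0.46 for Lef1 (SE 0.26, adjusted p = 0.168) and -0.60 for Pou3f1 (SE 0.18, adjusted p = 0.00959). Foxd3 was at 13.5 and 13.5 CPM, -0.94 from ESC. Against DMSO, 2 of 5 were called, where 12.8% of all tested genes were called: Otx2 at 2.28 (38.4 and 39.9 against 7.09 and 8.99 CPM, SE 0.16, adjusted p = 9.6e-12) and Pou3f1 at -1.12 (SE 0.18, adjusted p = 1.2e-05), whereas Foxd3 had 0.84 (SE 0.16, adjusted p = 1.4e-04). SE KO Dux OE against DMSO gave 3 of 5 called, all lower, where 19.8% of all tested genes were called. These were Zic2 (-3.21, SE 0.33, adjusted p = 8.0e-09), Lef1 (-3.05, SE 0.28, adjusted p = 1.6e-09) and Pou3f1 (-1.47, SE 0.17, adjusted p = 6.3e-08), while Foxd3 had -0.25 (SE 0.16, adjusted p = 0.209).

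**Figure D3:**
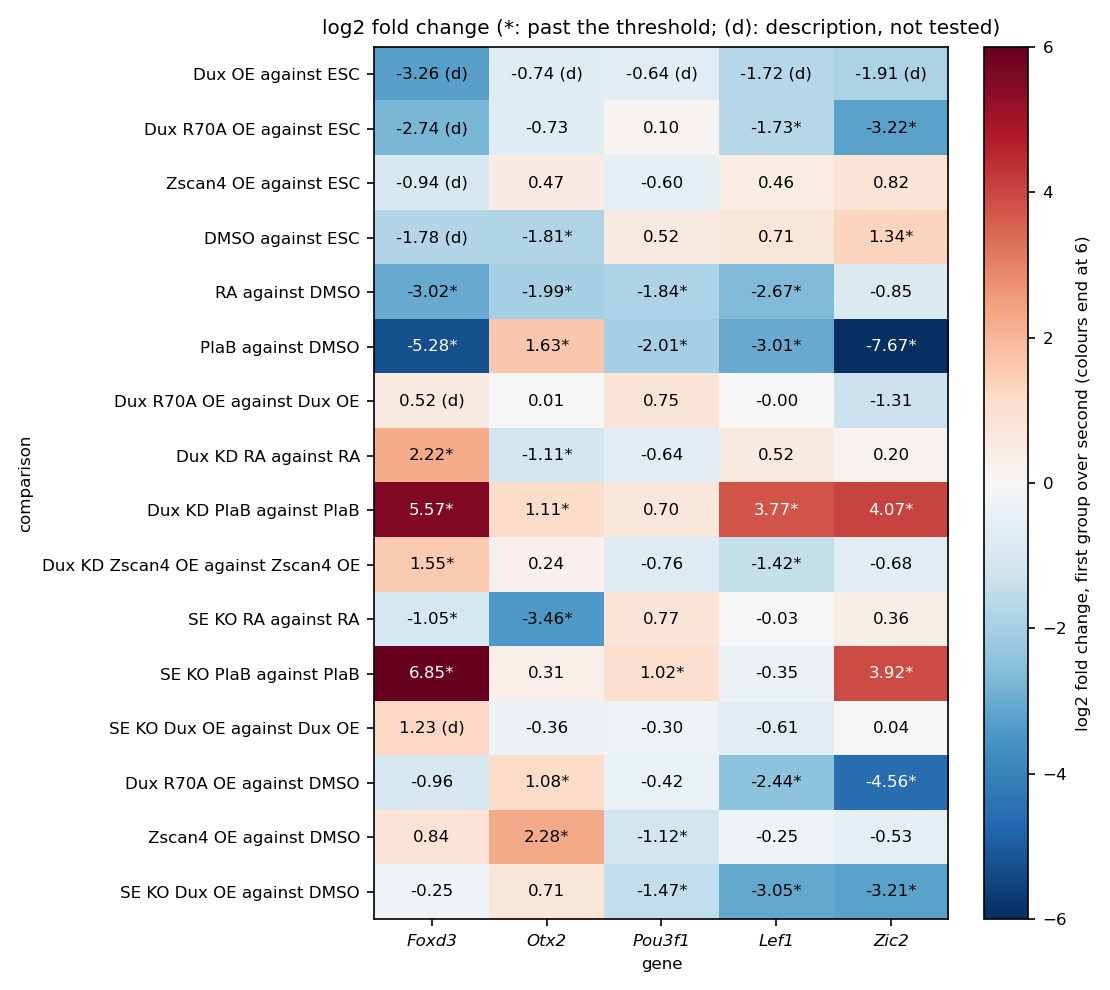
Log2 fold change of 5 genes (columns) in 16 comparisons (rows), with red for higher and blue for lower in the first group named and colours ending at 6. Asterisks mark values past the threshold and (d) marks descriptions that were not tested. PlaB against DMSO has -7.67 for Zic2 and 1.63 for Otx2, and Lef1 has 3.77 in Dux KD PlaB but -0.35 in SE KO PlaB.

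Other genes of the same states were counted from lists. The counts stand beside the share of all tested genes called, which was 31.0% in RA against DMSO, 58.9% in PlaB against DMSO, 54.9% in Dux KD PlaB against PlaB, 52.0% in SE KO PlaB against PlaB and 17.6% in SE KO RA against RA. The median log2 fold changes of all tested genes in these comparisons were 0.10, 0.22, -0.14, -0.07 and -0.04. Of 14 other formative and primed genes, 7 were called lower and 2 higher in RA against DMSO, with a median log2 fold change of -1.21 beside 0.10 for all tested genes. Fgf15, an FGF ligand, had -5.09 and Utf1, a chromatin factor of pluripotent cells, -4.41, while the neural-associated Sox3 (3.32) and Sall2 (2.99) rose. In PlaB, 10 of the 14 were called lower and none higher (median -2.50 beside 0.22), led by Zic5 at -5.72 and Tcf15, a helix-loop-helix factor, at -4.64. Dux KD PlaB against PlaB had 9 higher and 1 lower (median 1.85 beside -0.14) and SE KO PlaB against PlaB 8 higher and 2 lower (median 1.28 beside -0.07). Tcf15 rose by 3.42 and 2.71 in these 2 comparisons, which share the PlaB libraries. Dux R70A OE against DMSO had none higher and 4 lower, where 9.05% of all tested genes were called. Dux KD Zscan4 OE against Zscan4 OE had none higher and 4 lower, where 11.1% were called. Fgf15 was among the lower genes in both. Against ESC, Dux R70A OE had 1 higher (Fgf15, 1.41) and 3 lower, where 16.9% were called. Fgf15 was 3.12 higher in DMSO than in ESC, so its direction in Dux R70A OE depended on the control.

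The FGF and ERK pathway, through which the formative transition is driven, was counted over 16 genes. RA against DMSO had 1 higher and 8 lower (median -0.93 beside 0.10 for all tested genes), with the feedback inhibitor Spry4 at -4.78 and the receptor gene Fgfr2 at 3.06. PlaB against DMSO had 2 higher and 9 lower (median -1.59 beside 0.22), that is 11 of 16 where 58.9% of all tested genes were called, with the inhibitor Spred1 at -4.70 and the ETS factor Etv4 at -3.66. In Dux KD PlaB against PlaB, 9 were higher and 3 lower (median 1.46, Spred1 4.16, Etv4 2.89), and in SE KO PlaB against PlaB 8 were higher and 2 lower (median 1.09). The WNT and TCF pathway, in which Lef1 acts, was counted over 15 genes. PlaB against DMSO had 4 higher and 10 lower (median -2.04 beside 0.22). The members went both ways. Lgr5, a WNT target that encodes an R-spondin receptor, was listed at 0 in DMSO and had a mean of 4.01 CPM in PlaB, whereas the WNT target Sp5 had -6.59 and Notum, which encodes an extracellular WNT inhibitor, -3.53. Lgr5 was at a mean of 0.0299 CPM in Dux KD PlaB (-6.80 against PlaB) and 0.445 CPM in SE KO PlaB (-3.14). Dux KD PlaB against PlaB had 8 higher and 3 lower (median 1.43, Notum 3.48), SE KO PlaB against PlaB 7 higher and 1 lower (median 1.08, Notum 5.11), and RA against DMSO 2 higher and 1 lower (median 0.25), 3 of 15 where 31.0% of all tested genes were called.

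Naive genes were counted over 14 genes. PlaB against DMSO had 1 higher and 8 lower (median -1.08, Klf2 -4.18, Esrrb -3.65), 9 of 14 where 58.9% of all tested genes were called. Zfp42 was at 1230 and 1270 CPM in PlaB and 952 and 941 CPM in DMSO, a log2 fold change of 0.40 short of the fold threshold. Dux KD PlaB against PlaB had 6 higher and 1 lower (median 0.75). SE KO PlaB against PlaB had 7 higher and 2 lower (median 1.25) and RA against DMSO none higher and 7 lower of the 14 (median -0.83, Tcl1 -4.26), where 31.0% of all tested genes were called. SE KO RA against RA had 1 higher and 10 lower (median -1.34, Esrrb -2.45, Klf4 -2.38), in the comparison in which Otx2 and Foxd3 were lower. The core pluripotency list of 5 genes had none higher and 4 lower in RA against DMSO (median -1.46) and 1 higher and 2 lower in PlaB against DMSO, where Sox2 had -4.50. Of 11 relatives of the members in the same gene families, 9 were tested. RA against DMSO had 6 of them higher and 1 lower (median 2.50), Otx1 at 3.03 and the ESC-expressed ligand gene Fgf4 at -2.94. PlaB against DMSO had 1 higher (Otx1, 3.79) and 2 lower, with Fgf4 at -5.77. Apart from Fgf4, the tested relatives had mean levels of at most 0.419 CPM in DMSO, so their fitted values rest on few reads.

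**Figure D4:**
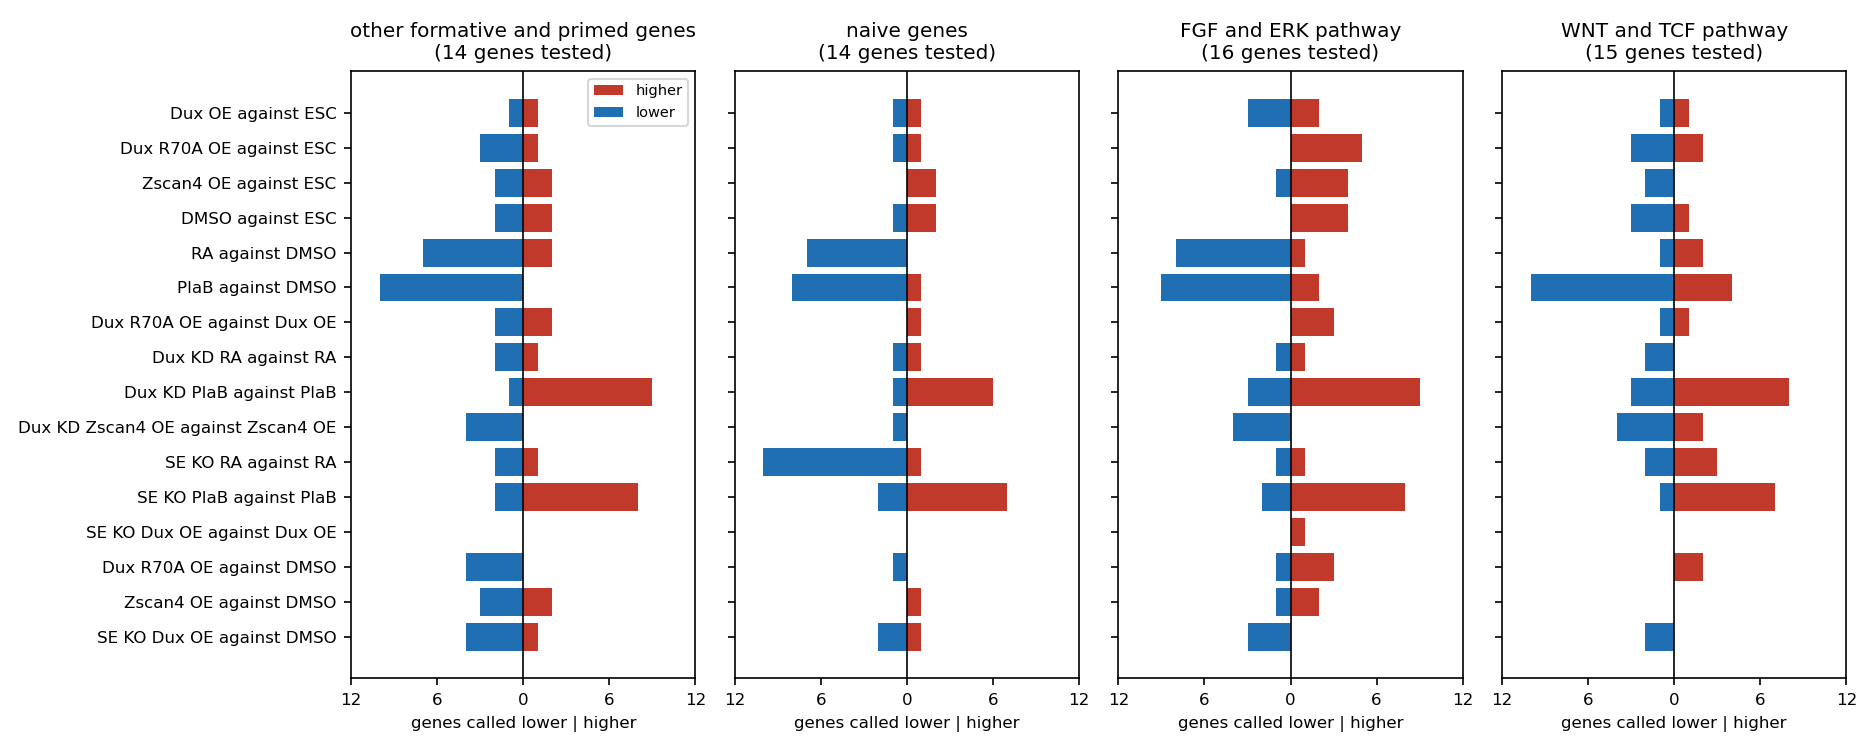
Number of genes called lower (blue, to the left) and higher (red, to the right) in 16 comparisons for 4 lists. PlaB against DMSO has 10 of 14 other formative and primed genes and 10 of 15 WNT and TCF genes lower, and Dux KD PlaB against PlaB has 9 and 8 of them higher.

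Markers of other cell types moved with several of these groups. The 9 primitive and visceral endoderm markers summed to 10.9 to 13.1 CPM in DMSO, 84.7 and 87.7 CPM in RA, 112 and 112 CPM in Dux KD RA, 39.2 and 42.3 CPM in PlaB, and 128 and 139 CPM in SE KO PlaB, with Afp and Ttr at most 1.11 CPM in any library. Of the 8 tested, 6 were called higher and 1 lower in RA against DMSO and 6 higher and none lower in PlaB against DMSO. Dux KD RA against RA had 1 higher (Sox17) and none lower, where 10.9% of all tested genes were called. SE KO PlaB against PlaB had 3 higher (Gata4, Gata6 and Dab2) and 2 lower, where 52.0% were called. Dab2 (58.1 and 55.7 CPM) and Gata6 (34.2 and 41.1 CPM) made up most of the SE KO PlaB sum. Dux KD PlaB against PlaB had 1 higher and 6 lower, where 54.9% were called. Beside these and the following marker counts, 31.0% of all tested genes were called in RA against DMSO and 58.9% in PlaB against DMSO. Neural progenitor markers (9 genes) summed to 37.4 and 37 CPM in DMSO, 59.7 and 60.9 CPM in RA, 107 and 104 CPM in SE KO RA, and 6.44 and 3.81 CPM in PlaB, with Neurog2 at or under the floor in every group. Most of these sums was Nes, at 30.7 and 30.9 CPM in DMSO, 51.3 and 53 CPM in RA and 4.12 and 1.95 CPM in PlaB, and of 6 tested 2 were called higher and none lower in RA, and 2 higher and 2 lower in PlaB. Neural crest markers (8 genes) were at 22.2 and 23.9 CPM in DMSO, 77.7 and 72.7 CPM in RA and 22.3 and 22.3 CPM in PlaB. In DMSO and PlaB most of this sum was Ngfr (18.3 and 19.5, and 18.3 and 17.2 CPM). In RA most of it was Sox9 (39.3 and 39.2 CPM) and Ets1 (22.3 and 17.9 CPM), while Ngfr was at 9.25 and 9.64 CPM. Of the 7 tested, 3 were called higher (Sox9, Ets1 and Snai2) and 1 lower (Ngfr) in RA against DMSO. In PlaB against DMSO, 2 were called higher (Sox9 4.63, Ets1 1.10) and 2 lower (Tfap2a -2.70, Sox10 -1.89). Markers of the primitive streak and mesoderm (8 genes) summed to 14.2 and 17.1 CPM in DMSO, 27 and 27.6 CPM in RA and 5.57 and 7.76 CPM in PlaB. The higher sum in RA was that of Foxa2, also an endoderm gene, which was listed at 0 in both DMSO libraries and at 16.5 and 15.5 CPM in RA. Eomes was at 11 and 13.3 CPM in DMSO and 8.94 and 10.3 CPM in RA, Tbx6 was called lower (-1.92), and the median of the 6 tested was -0.59. In SE KO Dux OE the 7 fibroblast markers summed to 116 and 117 CPM, against 47.2 and 44.5 CPM in Dux OE. In that comparison 4 of the 5 tested were called higher, where 6.30% of all tested genes were called. These were Postn (10.97 on the log2 scale), Col3a1 (6.46), Col1a2 (4.74) and Col1a1 (2.02). Postn was listed at 0 in both Dux OE libraries and at 11.6 and 14.1 CPM in SE KO Dux OE. Lum was at 0.0531 CPM in SE KO Dux OE replicate 1, below the floor. Thy1, at 67.6 and 66 CPM, made up most of the sum in SE KO Dux OE. It was at 43 and 40.8 CPM in Dux OE and was not called. The part of these cells, or of differentiation, in the levels of the 6 genes was not tested.

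The genes whose pattern over the 13 group means of log2 CPM was closest to each tested member, among 12129 candidates, are given as a description. For Foxd3 they were Mllt6 (Pearson's r 0.971), Bicral (0.957) and Epas1 (0.956), and for Otx2 Ddx58 (0.976), Dalrd3 (0.964) and Fbxo22 (0.958). For Pou3f1 they were Tmem151b (0.946), Plec (0.929) and Sh2b2 (0.906), and for Lef1, with the weakest likeness, Marveld3 (0.832), Fxr1 (0.807) and Ptpn6 (0.799). Zic2 was most like its neighbour Zic5 (0.916), then Gspt2 (0.894) and Snx9 (0.883). No member was among the 3 genes closest to another.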

How the data were processed

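Reads had been counted on genes by the authors, who deposited whole-number counts without normalization. The submitters' processing notes name FastQC, Trimmomatic, STAR, featureCounts, DESeq2 and mm10. Versions, strand setting and the handling of multi-mapping reads are not given in the sources used here. Of 53292 gene names shared with GENCODE M21, 52905 (99.3%) have the same span there.

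Counts were fitted with edgeR 4.0.16 under R 4.3.3. A single model held the 26 libraries, normalised by TMM and filtered with filterByExpr (20953 genes kept, common biological coefficient of variation 0.0833), and differences were tested by quasi-likelihood. Fgf5 failed the filter and is given as counts, with exact intervals that cover counting error only. Ratios of summed counts are given for members with few reads, and a floor of 3 counts was used. The members and lists were chosen with earlier results of these data known. The named genes were the 6 members, the 3 genes most like each, and at most 4 called genes per list and comparison. No member was tested in Dux OE against ESC, nor Foxd3 in other comparisons that share those libraries. Alternatives were RLE and library size scaling, no filter, DESeq2 1.42.0, 2 groups only, a replicate block, the other control, and each replicate left out, and interactions under these settings were added after the data were seen. No pair of replicates agreed within sampling noise (chi-square per degree of freedom 1.55 to 30.2). The scripts were first tested on simulated data.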

Additional observations from a re-analysis of the deposited data

Results flagged for a closer look

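The effect of a genotype differed between inductions for 12 combinations of gene and contrast, by an interaction test in edgeR with adjusted p under 0.05 and a difference of at least 1 on the log2 scale. The Dux KD effect in PlaB exceeded that in RA by 3.35 for Foxd3, 2.22 for Otx2, 1.33 for Pou3f1, 3.25 for Lef1 and 3.87 for Zic2. Zscan4c also differed far less between Dux KD RA and RA than between Dux KD PlaB and PlaB. The Dux KD effect in Zscan4 OE minus that in RA was 1.35 for Otx2 and -1.95 for Lef1, where the replicates of the knockdown group disagreed and their induction is not given by the labels. The SE KO effect in PlaB exceeded that in RA by 7.91 for Foxd3, 3.78 for Otx2 and 3.56 for Zic2. The SE KO effect in Dux OE minus that in RA was 3.10 for Otx2 and -1.08 for Pou3f1. All 12 differences were tested, and those that share PlaB, RA or Dux OE libraries are not independent of each other.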

How the results depend on the processing

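With 2 libraries a group, the spread is borrowed largely from other groups and genes, and Fgf5 was below what this depth can compare. With DMSO in place of ESC as the control, 3811 genes were called in Dux OE (1992 against ESC), 2408 of them higher (1547) and 1403 lower (445). For Dux R70A OE 1897 were called (3550), and 2 members in Zscan4 OE (0). Signs then turned for Otx2 in Dux OE (1.07) and Dux R70A OE (1.08), for Pou3f1 in Dux R70A OE (-0.42), and for Foxd3 (0.84), Lef1 (-0.25) and Zic2 (-0.53) in Zscan4 OE. In Dux R70A OE against Dux OE, 1 member (Zic2) was called in place of 0 with no low-count filter, in a fit of only these 2 groups and with DESeq2. A fit of only the 2 groups left 1547 genes called in place of 2332 and 1 member in place of 2 in Dux KD Zscan4 OE against Zscan4 OE, and 1 member in place of 2 in SE KO RA against RA. Library size scaling left 1 member in place of 2 in the difference of SE KO effects between Dux OE and RA. It also moved the split of all genes called to 2999 higher and 868 lower in Dux R70A OE against ESC (2143 and 1407), 1969 and 603 in Zscan4 OE against ESC (1520 and 919), 5047 and 1525 in RA against DMSO (4319 and 2180), 1726 and 404 in Dux R70A OE against DMSO (1287 and 610), 1901 and 1329 in Dux R70A OE against Dux OE (1280 and 1574), and 944 and 1724 in the difference of Dux KD effects between Zscan4 OE and RA (1266 and 1303). No low-count filter gave 654 and 652 in SE KO Dux OE against Dux OE (515 and 804). With each replicate left out in turn, members called ranged from 0 to 1 in Dux R70A OE against Dux OE, from 1 to 2 in Dux KD RA against RA, in SE KO RA against RA and in the difference of SE KO effects between Dux OE and RA, from 1 to 3 in Dux KD Zscan4 OE against Zscan4 OE, from 2 to 3 in the difference of Dux KD effects between Zscan4 OE and RA, and from 3 to 4 in Dux R70A OE against DMSO. Genes called in SE KO Dux OE against Dux OE ranged from 793, without Dux OE replicate 2, to 1112 (1319 with all libraries). Signs of small values turned with 1 library left out for Pou3f1 in Dux R70A OE against ESC (-0.10 to 0.32), Otx2 in Dux R70A OE against Dux OE (-0.06 to 0.12), Otx2 (-0.08 to 0.48) and Zic2 (-2.12 to 0.03) in Dux KD Zscan4 OE against Zscan4 OE, Lef1 in SE KO RA against RA (-0.28 to 0.17) and Zic2 in SE KO Dux OE against Dux OE (-0.07 to 0.22). The cause of these changes was not tested. The replicate number was shared by the groups but did not pair the libraries (r of same-numbered deviations from -0.0473 to 0.0237 in 16 comparisons), and with it as a replicate block the counts of members called were the same in all comparisons (for instance 4 in Dux KD PlaB against PlaB), while genes called went from 12331 to 12296 in PlaB against DMSO. Over all members and settings, 1047 values kept their direction and, where tested, their side of the threshold. Of the others, 11 passed it, 17 no longer passed it, 15 changed sign and 5 moved without a test. Lef1 in Dux R70A OE against Dux OE, from -0.21 to 0.31 with 1 library left out, was not counted as a change of sign.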
